A study of Rattus norvegicus with 484 samples.

Results

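Fenofibrate was compared with vehicle in a rat muscle that the labels call quad, over days 2 to 6 of the study. The comparison took 78 of the 484 arrays of the series: 17 arrays of rats given fenofibrate at 400 mkd (the dose unit as the labels write it) and 61 arrays of rats given vehicle at 0 mkd. They were chosen by tissue, compound, dose and day in the sample titles. Of 18 fenofibrate and 63 vehicle quad arrays, 3 were left out. Fenofibrate rat 1157 had a spread of log ratios 7.70 times the quad median, vehicle rat 1068 had one 3.17 times that median, and vehicle rat 1042 had a median of 16 hepatocyte markers 2.05 log2 units above the vehicle mean of its day. Fenofibrate arrays numbered 4, 4, 4, 3 and 2 on days 2 to 6, and vehicle arrays numbered 14, 8, 14, 15 and 10. Each array is a different rat by its label number. Strain, age, sex and route of dosing are not given in the sources used here.

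The series measured total RNA of soleus, quad, liver and a muscle labelled EDL on 2-colour arrays, after treatment with PPAR agonists, retinoic acid or vehicle. Each array set a single animal's RNA (Cy5) against pooled vehicle RNA (Cy3) from that tissue and day, and the quad pools held 11 to 15 rats. Its question, by its title, is how the response of rat muscle to PPARA agonists depends on fibre type. Gene and list values below are log2 ratios of a rat to that pool with the vehicle mean of the day subtracted. So 0 is the vehicle mean and 1 is a doubling. They are relative and give no absolute level. Since the muscle was taken whole, fewer cells of a type and less RNA per cell cannot be told apart.

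PPARA is a nuclear receptor that fatty acids switch on. It pairs with an RXR receptor, binds near genes for fatty acid uptake, transport and oxidation, and raises their transcription. Fenofibrate is a lipid-lowering drug of the fibrate class whose active acid is a PPARA agonist. In muscle the receptor's known targets include the mitochondrial and peroxisomal enzymes that shorten fatty acids 2 carbons at a time (beta-oxidation), the acyl-CoA thioesterases, and regulators such as Pdk4 and Ucp3 that turn fuel use from glucose to fat.

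The direction of the ratio (rat over pool) was taken from the dyes in the labels. It was checked in liver, where the PPARA targets Cyp4a1, Acot1, Ehhadh and Vnn1 were higher with fenofibrate by 2.01, 2.92, 3.01 and 3.04 log2 units. Over the 591 pairs of quad arrays that share a day, 10 correlated below -0.3 across all features, the lowest at -0.396. None of the 22 pairs of fenofibrate arrays did, and these ran from -0.07 to 0.63. The correlations used the ratios to the pool as they were, without the vehicle mean subtracted. The spread of log ratios on an array (median absolute deviation) was 0.0953 to 0.199 log2 units with fenofibrate and 0.0669 to 0.259 with vehicle. No value was missing on the 18 arrays of day 2, and the 60 arrays of days 3 to 6 lacked 0.317% to 1.89% of their values. The missing values fell on defining muscle genes: Acta1 (skeletal alpha-actin) and Ckm (muscle creatine kinase) had values on 18 arrays only, all of day 2. Of the 12 skeletal muscle markers on the array, 4 had a value on at least 80% of the quad arrays, against 7 in soleus and 12 in liver. Of 13 fast-fibre contractile genes, 1 could be tested in quad, Tnnc2 (fast troponin C), at 0.04 log2 units.

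Few features were called for fenofibrate in quad, and most called changes were small. Of 18416 features tested (genes, and probes that name no gene), 76 passed, 0.413% (limma moderated test, adjusted p below 0.05 by Benjamini-Hochberg). At an unadjusted p under 0.05 there were 2131. Of the 76, 41 were higher (0.223%) and 35 were lower (0.19%). The median size of a called change was 0.22 log2 units, 3 features moved by more than 0.5 and only Acot1 moved by more than 1. A named gene stood behind 47 calls, 26 higher and 21 lower, and 29 were probes without a name. The sign was the same on every day for 64 of the 76. In none of the 76 did the fenofibrate and vehicle rats separate without overlap. The calls lay near the threshold, with an adjusted p above 0.04 for 39 and below 0.01 for 4, and leaving out the 2 arrays of day 6 or other single days and rats moved the count, as given further on.

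Acot1, the cytosolic acyl-CoA thioesterase that frees fatty acids from coenzyme A, rose most. On day 2 the 4 fenofibrate rats stood at 1.48, -0.50, 0.29 and 0.32. On day 3 they stood at 2.14, 0.96, 2.38 and 1.32, and on day 4 at 3.04, -0.07, 2.18 and 1.46. Before the vehicle mean was subtracted, the day 4 ratios to the pool were 1.89, -1.22, 1.03 and 0.31. On day 5 the 3 rats stood at 2.19, 2.18 and -0.12, and on day 6 the 2 rats stood at 1.29 and 1.01. So 14 of 17 rats were above the vehicle mean and 3 were not, with 1 of these on each of days 2, 4 and 5. Vehicle rats ran from -1.66 to 2.12 with a median of -0.08, and 6 fenofibrate rats were above the highest of them. The mean of the 5 days was 1.26 ± 0.23 log2 units (SE), a 2.40-fold rise (adjusted p = 0.00453). The daily means were 0.40, 1.70, 1.65, 1.42 and 1.15. Acot2, its close mitochondrial relative, was at 0.24 ± 0.10 and did not pass (adjusted p = 0.325); whether the probes of these similar genes also bind each other's transcript was not tested.

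Acaa1b, a peroxisomal 3-ketoacyl-CoA thiolase that carries out the last step of peroxisomal beta-oxidation, rose 1.77-fold (0.83 ± 0.18, adjusted p = 0.0207). The fenofibrate rats ran from -0.42 to 2.31 with a median of 0.73, and 15 of 17 were above 0. Their day 4 ratios to the pool, before the vehicle mean was subtracted, were 0.84, -0.39, 1.18 and -0.72. Vehicle rats had a median of -0.13 but reached 2.81, so no fenofibrate rat was above the highest of them. Its 3 probes gave 1.28 ± 0.28, 1.07 ± 0.24 and 0.13 ± 0.06; the last did not pass when probes were tested singly (adjusted p = 0.357). The rats with the highest Acaa1b also had hepatocyte markers above the vehicle mean. The fenofibrate rats 1154, 1151, 1149 and 1147 had the highest Acaa1b (2.31, 2.24, 1.90 and 1.73), and their hepatocyte marker medians were 1.16, 0.44, 0.28 and 0.72. The vehicle rats 1056, 1034 and 1039 had 2.81, 1.82 and 1.35, with marker medians of 1.15, 1.06 and 0.63. Acot1 was also high in these rats. In the same order it was at 2.18, 2.18, 3.04 and 2.38 in the 4 fenofibrate rats. In the 3 vehicle rats it was at 2.12, 1.74 and 1.37. Other vehicle rats with high marker medians were 1002, 1066 and 1045, at 1.69, 1.2 and 1.11. These had Acaa1b at 0.305, -0.05 and -0.07 and Acot1 at 0.34, -0.68 and -0.78. Between the groups 0 of the 16 markers passed, their median effect was 0.00, and array medians ran from -0.78 to 1.16 with fenofibrate and from -0.71 to 1.69 with vehicle. With the array's hepatocyte median as a covariate, an alternative added after seeing the data, Acaa1b was at 0.85 ± 0.14 and Acot1 at 1.28 ± 0.23. All 76 calls were kept in that fit, which called 89. It gave both groups a single slope, while in liver fenofibrate raised Acaa1b by 2.22 and Acot1 by 2.92 log2 units. A common slope cannot take up liver RNA that differs between the groups in this way. Whether liver RNA entered these values was not tested.

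Atp1b4, which encodes a muscle protein of the Na,K-ATPase beta-subunit family, was the third gene past 0.5 log2 units. The fenofibrate rats stood at 0.70, 0.45, 0.30 and 1.21 on day 2, at -0.43, 0.51, 0.85 and 0.71 on day 3 and at 0.22, 0.64, 0.43 and 0.14 on day 4. They stood at 0.63, 0.91 and 0.64 on day 5 and at 0.96 and 1.55 on day 6. All but rat 1145 of day 3 were above the vehicle mean, while vehicle rats spread from -1.05 to 1.09. The effect was 0.68 ± 0.13, a 1.61-fold rise (adjusted p = 0.0074). Of 19 genes of calcium handling and excitation tested, Atp1b4 was the 1 that passed, against 0.413% of all features. The list median was 0.03 against 0.00 over all features.

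**Figure D1:**
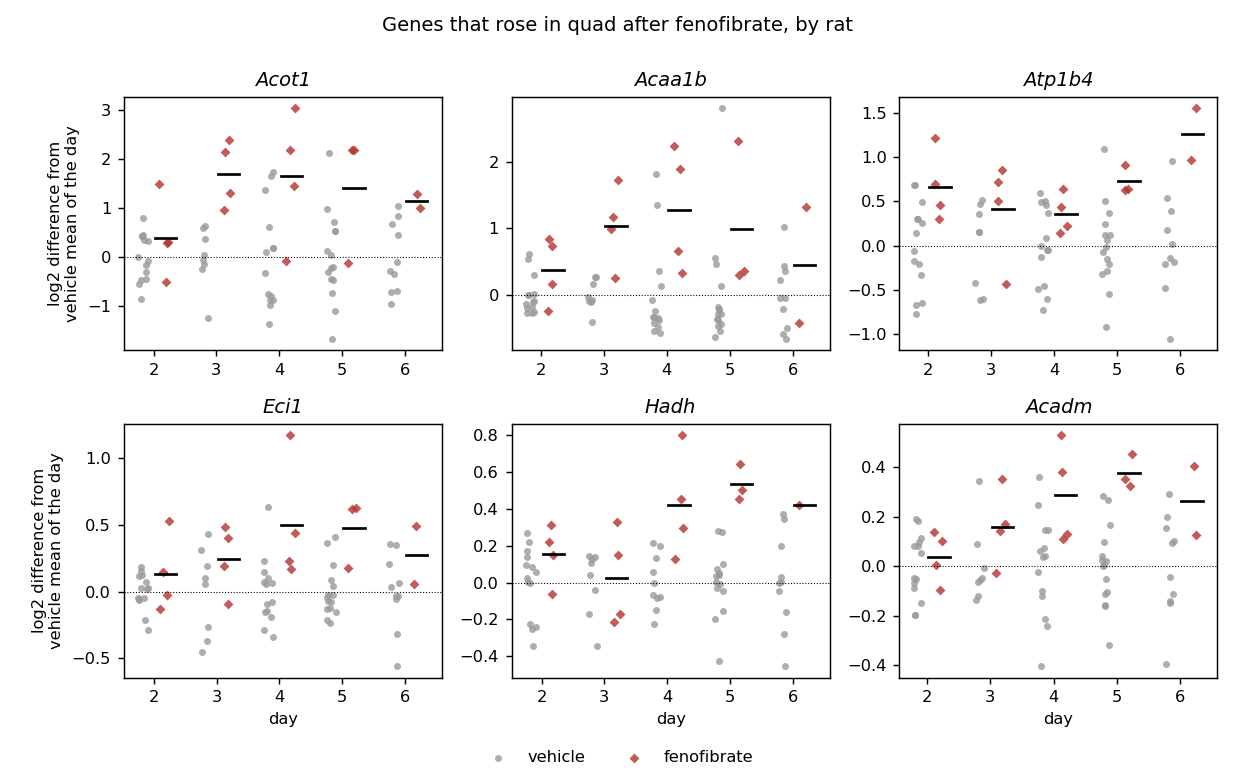
Log2 ratio of each rat minus the vehicle mean of its day (y axis) by day (x axis) for Acot1, Acaa1b, Atp1b4, Eci1, Hadh and Acadm. Grey points are vehicle rats, red diamonds fenofibrate rats, black bars the fenofibrate mean of a day and the dotted line the vehicle mean. Most diamonds lie above the dotted line, 14 of 17 for Acot1 and 16 of 17 for Atp1b4. On day 3 the Acot1 diamonds, from 0.96 to 2.38, all lie above the highest vehicle rat of that day (0.65). Over all days together the diamonds overlap the vehicle rats in every gene shown.

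Of the 26 mitochondrial beta-oxidation genes tested 3 passed, Eci1, Hadh and Acadm, all of them higher by small amounts. Over all features 0.413% passed. Eci1, the isomerase that readies unsaturated fatty acids for the cycle, was 1.25-fold higher (0.33 ± 0.07, adjusted p = 0.0207). Its fenofibrate rats ran from -0.13 to 1.17 with a median of 0.23, against -0.56 to 0.63 with a median of -0.02 in vehicle rats, and 14 of 17 were above 0. Both of its probes gave nearly the same value, 0.33 and 0.32. Hadh, the short-chain 3-hydroxyacyl-CoA dehydrogenase, was at 0.31 ± 0.06 over the 16 fenofibrate and 56 vehicle rats with a value (adjusted p = 0.0163), with 1 fenofibrate rat, 1160, on day 6. Its range was -0.22 to 0.80 with a median of 0.30 against -0.45 to 0.37 with a median of 0.02, and 6 fenofibrate rats were above every vehicle rat. Acadm, the medium-chain acyl-CoA dehydrogenase, was at 0.22 ± 0.05 (adjusted p = 0.0207), with 15 of 17 rats above 0 and a range of -0.10 to 0.53 against -0.40 to 0.36. The daily means of the 3 genes were lowest on day 2 or 3 and highest on day 4 or 5. Eci1 gave 0.13, 0.25, 0.50, 0.47 and 0.28, Hadh 0.16, 0.02, 0.42, 0.53 and 0.42, and Acadm 0.04, 0.16, 0.29, 0.38 and 0.26.

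The rest of the mitochondrial list did not pass. Its median effect was 0.12 against 0.00 over all features, with 20 of 26 members above 0 and the members between -0.07 (Echs1) and 0.33 (Eci1). The trifunctional protein subunit Hadha was at 0.15 ± 0.04 (adjusted p = 0.106) and the thiolase Acaa2 at 0.19 ± 0.06 (adjusted p = 0.163). The carnitine palmitoyltransferases that bring fatty acids into mitochondria were at 0.14 ± 0.05 for the muscle form Cpt1b (adjusted p = 0.196), at -0.04 ± 0.03 for Cpt1a and at 0.09 ± 0.06 for Cpt2. The very long-chain and long-chain dehydrogenases Acadvl and Acadl were at 0.14 ± 0.06 and 0.15 ± 0.08. The carnitine carrier Slc25a20 was at 0.09 ± 0.04, with 14 of 17 rats above 0.

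Of 20 peroxisomal beta-oxidation genes tested, 2 passed, both higher, against 0.413% of all features. The list median was 0.07 with 14 above 0. Beside Acaa1b this was Eci2, the peroxisomal enoyl-CoA isomerase, at 0.17 ± 0.04 (adjusted p = 0.0464), with 16 of 17 rats above 0. Of its 3 probes, 2 gave 0.22 and 0.21 and the other gave 0.09. Ehhadh, the bifunctional enzyme of the same pathway and a large responder in liver, was at 0.27 ± 0.09 (adjusted p = 0.19). Ech1, the dienoyl-CoA isomerase, was at 0.26 ± 0.09 (adjusted p = 0.161), with rats between -0.20 and 1.15.

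The next steps of energy metabolism held no gene that passed. Of 18 oxidative phosphorylation genes tested, 0 passed, with a median of 0.08 and 14 above 0; the largest was the complex I subunit Ndufs1 at 0.22. Of 15 genes of the TCA cycle, 0 passed, with a median of 0.05 and 12 above 0; Cs (citrate synthase) was at 0.26 ± 0.07 (adjusted p = 0.068). In soleus, where 7.13% of all features were called in a fit of both muscles, 7 genes of each list passed, all higher. The difference between soleus and quad passed for 0 of the 18 and 0 of the 15 (limma, adjusted p). Immt, which shapes the inner membrane's folds, was at 0.19 ± 0.05 with 16 of 17 rats above 0 (adjusted p = 0.0464). Tested singly, its probes at 0.28 and 0.25 passed and those at 0.14 and 0.10 did not (adjusted p = 0.129 and 0.698). Ndufaf7, a complex I assembly factor, was at 0.18 ± 0.04 (adjusted p = 0.0315). Mtg2, a GTPase of the mitochondrial ribosome, was at 0.13 ± 0.03 with 17 of 17 above 0 (adjusted p = 0.0464). Its probes, at 0.16 and 0.10, did not pass when tested singly (adjusted p = 0.0861 and 0.150). Immt, Ndufaf7 and Mtg2 belong to none of these lists and were picked from the 47 called genes after their values were seen. Glycolysis and glycogen genes gave 0 of 26 and a median of 0.04.

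The genes known as PPAR-responsive switches of fuel use were not called, apart from Acot1. Pdk4, which switches off pyruvate dehydrogenase, was at 0.20 ± 0.15 (95% interval -0.10 to 0.49, adjusted p = 0.681). Its fenofibrate rats ran from -1.47 to 1.44 with a median of 0.24, and its vehicle rats from -1.69 to 0.91, and its daily means changed sign (-0.25, 0.88, 0.40, -0.29 and 0.24). Angptl4, a secreted inhibitor of lipoprotein lipase, was at 0.14 ± 0.11 (interval -0.08 to 0.35, adjusted p = 0.70). Ucp3, a mitochondrial carrier that rises with fatty acid supply, was at 0.12 ± 0.11 (interval -0.10 to 0.34, adjusted p = 0.756). The list gave 1 of 16 higher, against 0.223% of all features, and a median of 0.05. Of 16 genes of fatty acid uptake and storage 0 passed, with a median of 0.00. The fatty acid transporter Cd36 was at 0.25 ± 0.10 (adjusted p = 0.292), Fabp4 at -0.14 ± 0.10, the lipid droplet protein Plin2 at -0.02 ± 0.06 and Lpl at 0.02 ± 0.13. The intervals of Pdk4 and Cd36, which reach up to 0.49 and 0.46, still hold changes larger than many of the called ones.

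Among 21 PPAR receptors and partners tested 2 passed, in opposite directions, against 0.413% of all features. The list median was -0.01. Rxrg, the RXR form enriched in skeletal muscle, was higher (0.21 ± 0.05, adjusted p = 0.0496). Its daily means were 0.15, -0.01, 0.12, 0.27 and 0.52. Nrip1, a corepressor of nuclear receptors that restrains oxidative genes in muscle, was lower (-0.24 ± 0.06, adjusted p = 0.0496). It was below 0 in 15 of 17 rats, with daily means between -0.40 and -0.16. Of its probes tested singly, that at -0.28 passed and that at -0.20 did not (adjusted p = 0.238). The receptors themselves were at 0.05 ± 0.04 for Ppara, -0.01 ± 0.03 for Ppard and -0.15 ± 0.07 for Pparg, and the coactivator Ppargc1a was at -0.12 ± 0.08; none of these 4 passed.

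The other 4 of the 10 largest rises were in Pkia, Arf1, Pigx and C12h7orf50. Pkia, an inhibitor of protein kinase A, was at 0.40 ± 0.09 (adjusted p = 0.0207), with daily means of 0.25, 0.30, 0.11, 0.52 and 0.83. Arf1, a small GTPase of vesicle budding, was at 0.29 ± 0.07 (adjusted p = 0.0496) and was above the vehicle mean in 17 of 17 rats, from 0.02 to 0.74. Vehicle rats ran from -0.86 to 0.43 for Arf1, so the groups overlapped. Pigx, which helps build the GPI anchor of membrane proteins, was at 0.24 ± 0.05 (adjusted p = 0.0207), and C12h7orf50 was at 0.22 ± 0.05 (adjusted p = 0.0163).

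The falls were smaller than the largest rises, and all lay at or under 0.50 log2 units. Fcrl2, a receptor-like protein of the Fc receptor family, fell most (-0.50 ± 0.13, adjusted p = 0.0496). Its fenofibrate rats ran from -1.12 to 0.16 with a median of -0.57, and 16 of 17 were below 0, while vehicle rats ran from -1.49 to 1.07. Slc25a30, a carrier of the inner mitochondrial membrane, was at -0.40 ± 0.09 (adjusted p = 0.0306), with 15 of 17 rats below 0 and 4 below every vehicle rat. It was the 1 of 15 mitochondrial carriers that passed, against 0.413% of all features. When its probes were tested singly, that at -0.45 passed and that at -0.35 did not (adjusted p = 0.0536). Rgcc, a regulator of the cell cycle that is expressed in endothelium, was at -0.39 ± 0.10 (adjusted p = 0.0496), with 16 of 17 below 0, a range of -0.93 to 0.10 and a vehicle range of -1.25 to 1.06.

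**Figure D2:**
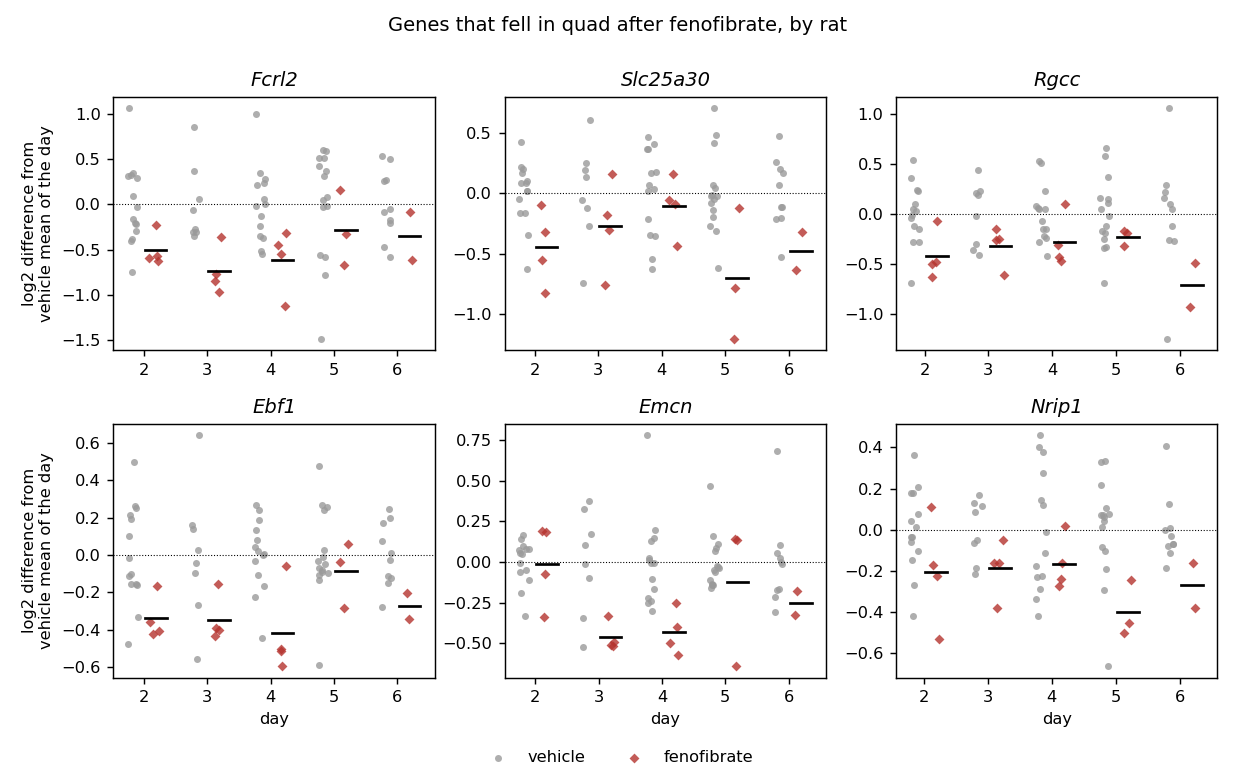
Log2 ratio of each rat minus the vehicle mean of its day (y axis) by day (x axis) for Fcrl2, Slc25a30, Rgcc, Ebf1, Emcn and Nrip1, with grey points for vehicle rats, red diamonds for fenofibrate rats, black bars for the fenofibrate mean of a day and a dotted line for the vehicle mean. The diamonds lie mostly below the dotted line, 16 of 17 for Fcrl2, Rgcc and Ebf1, and overlap the vehicle rats in all 6 genes.

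The other falls in named genes were at or under 0.29 log2 units. Ebf1, a transcription factor of adipose and stromal precursors and B cells, was at -0.29 ± 0.07 (adjusted p = 0.0207), with 16 of 17 rats below 0. Angpt2, an angiopoietin that loosens vessels, was at -0.27 ± 0.06 (adjusted p = 0.0281), and Emcn (endomucin), a surface sialomucin of capillaries and veins, at -0.25 ± 0.07 (adjusted p = 0.0496). Emcn was below 0 in all 4 rats on each of days 3 and 4, with daily means of -0.01, -0.46, -0.43, -0.12 and -0.25. Heph, a copper-dependent ferroxidase, was at -0.25 ± 0.06, with 8 of 17 rats below every vehicle rat (adjusted p = 0.0457). Cyp1b1, a cytochrome P450 of stromal cells, was at -0.25 ± 0.06 and was below 0 in 17 of 17 rats (adjusted p = 0.0464). Its probes at -0.38 and -0.21 passed when tested singly, and that at -0.16 did not (adjusted p = 0.156). Lcp1 (L-plastin), an actin bundler of leukocytes, was at -0.23 ± 0.05 (adjusted p = 0.0163). Cyp1b1 and Lcp1 were picked from the called genes after their values were seen. Lin52, Fxyd2 and Zbtb20 completed the 10 largest falls at -0.29, -0.28 and -0.25.

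Among the marker lists of cell types that whole muscle can hold, 1 gene was called. Of 16 endothelial markers 1 passed (Emcn), against 0.413% of all features, with 10 below 0 and a median of -0.04. Pecam1 was at -0.23 ± 0.06 (adjusted p = 0.079), while 6 of the 16 were above 0, with Kdr the highest at 0.05. Endothelial medians ran from -0.23 to 0.16 over fenofibrate arrays and from -0.31 to 0.54 over vehicle arrays. Of 24 macrophage and leukocyte markers 0 passed, but 22 were below 0, with a median of -0.10 and array medians of -0.29 to 0.04 against -0.31 to 0.25. Of 25 fibroblast and matrix markers 0 passed, 18 were below 0 and the median was -0.05, with array medians of -0.61 to 0.50 against -0.71 to 0.48. Their lowest members were the matrix proteoglycans Dcn at -0.40 and Lum at -0.30. The part of these cell types in the falls was not tested.

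The other lists of cell types and states described here held no call. Adipocyte markers gave a median of -0.01 over 12 genes (7 below 0), mast cell markers -0.01 over 8 (4 below 0), nerve and Schwann cell markers -0.03 over 11 (10 below 0) and smooth muscle and pericyte markers -0.02 over 11 (9 below 0). Neutrophil markers gave -0.13 over 4 and erythrocyte markers -0.08 over 6, all below 0. Their array medians ran from -1.69 to 3.70 and from -0.55 to 1.78 with fenofibrate, against -1.82 to 4.12 and -0.81 to 1.11 with vehicle. Of 14 glucocorticoid and fasting responsive genes 13 were below 0, with a median of -0.13, led by Cebpd and Mt2A at -0.43 each. The list's daily medians changed sign (-0.24, 0.19, 0.15, -0.37 and -0.34), and array medians ran from -0.50 to 0.61 with fenofibrate and from -0.56 to 0.36 with vehicle. Of 17 immediate early and stress genes 15 were below 0, with a median of -0.10; Egr2 was at -0.31 (adjusted p = 0.075) and Myc at -0.26 (adjusted p = 0.064). The 10 slow-fibre contractile genes had a median of -0.12, with 9 below 0, but the rats differed widely: array medians ran from -1.15 to 0.82 with fenofibrate and from -0.90 to 1.11 with vehicle. Myl2, the slow regulatory light chain, was at -0.49 ± 0.26 (adjusted p = 0.47), and Myh7, the slow myosin heavy chain, at -0.07 ± 0.11. How far the fibre mix of the sampled piece enters the other values was not tested.

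The change of the effect per day was called for 1 gene. When each day was tested by itself, 4, 1, 0, 0 and 3 features passed on days 2 to 6. The linear trend over days passed for 1 of 18416 features (0.00543%), against 596 at an unadjusted p under 0.05. That gene was Sult1d1, a sulfotransferase, which gained 0.61 log2 units per day, from a mean of -1.04 on day 2 to 1.92 on day 6. All 4 rats of day 2 were below 0 (-1.34, -0.85, -0.79 and -1.18), and both rats of day 6 were above it (1.44 and 2.40). Its mean over the 5 days was 0.13 ± 0.16, which did not pass. The trend call was lost in 25 of the 78 fits that left out 1 rat, and 4 features were called without fenofibrate rat 1160.

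In soleus, a slow and oxidative muscle, the same dose gave more calls. There 19 fenofibrate and 32 vehicle arrays gave 1308 of 18354 features (7.13%), 738 higher and 570 lower. This count came from a fit of both muscles together, while the 76 calls for fenofibrate in quad came from quad arrays alone. A quad count from the joint fit is not given here. The effect in soleus minus that in quad passed for 76 features (0.414%), of which 65 were higher in soleus, and 52 were named genes. Of 20 mitochondrial beta-oxidation genes tested in soleus 15 were higher, with a median of 0.33, and of 19 peroxisomal genes 12 were higher and 1 lower, with a median of 0.24. The difference itself passed for 5 mitochondrial and 3 peroxisomal genes. Acot2 was at 1.15 in soleus and 0.24 in quad, a difference of 0.91 ± 0.15 (adjusted p = 0.000111). Ech1 was at 0.95 and 0.26, a difference of 0.68 ± 0.12, and Eci2 at 0.68 and 0.17, a difference of 0.50 ± 0.07. Hadha, Acaa2 and Cpt2 differed by 0.38 ± 0.08, 0.46 ± 0.10 and 0.38 ± 0.09.

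The gene with the largest rise in quad did not differ by this test. Acot1 was at 2.10 ± 0.24 in soleus, and the difference of 0.84 ± 0.34 did not pass (adjusted p = 0.316). Acaa1b and Atp1b4 had the higher value in quad. Acaa1b was at 0.59 ± 0.18 in soleus, a difference of -0.24 ± 0.25 (adjusted p = 0.807). Atp1b4 was at 0.13 ± 0.13 in soleus, a difference of -0.56 ± 0.17 (adjusted p = 0.136). Pdk4, Angptl4 and Ucp3 passed in soleus at 0.76, 0.73 and 0.51, but their differences from quad did not pass (adjusted p = 0.221, 0.159 and 0.276). The largest differences belonged to Tmem171 (1.24 ± 0.23) and the lipid kinase Pik3c2g (1.05 ± 0.21), which were at 0.08 and 0.32 in quad. Below 0 the largest were Tspan5 (-0.39 ± 0.09) and Sh3pxd2a (-0.34 ± 0.09).

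By label number the rats of both muscles are the same for 17 fenofibrate and 24 vehicle rats. With the rat as a fixed block, which keeps these 41 rats only, 29 features passed, and 25 of the 76 were kept. With the rat as a random block over all rats 189 passed, all 76 among them. Under the fixed block Acot2 (0.80, adjusted p = 0.0379), Ech1 (0.66), Eci2 (0.45), Cpt2 (0.35, adjusted p = 0.04995), Tmem171 (1.11), Pik3c2g (1.07) and Acad11 (0.73) passed. Hadha (0.36, adjusted p = 0.0814), Acaa2 (0.38, adjusted p = 0.113), Gpam (0.59, adjusted p = 0.16), Tspan5, Sh3pxd2a, Rpa1, Tada2a and Zcchc17 did not.

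**Figure D3:**
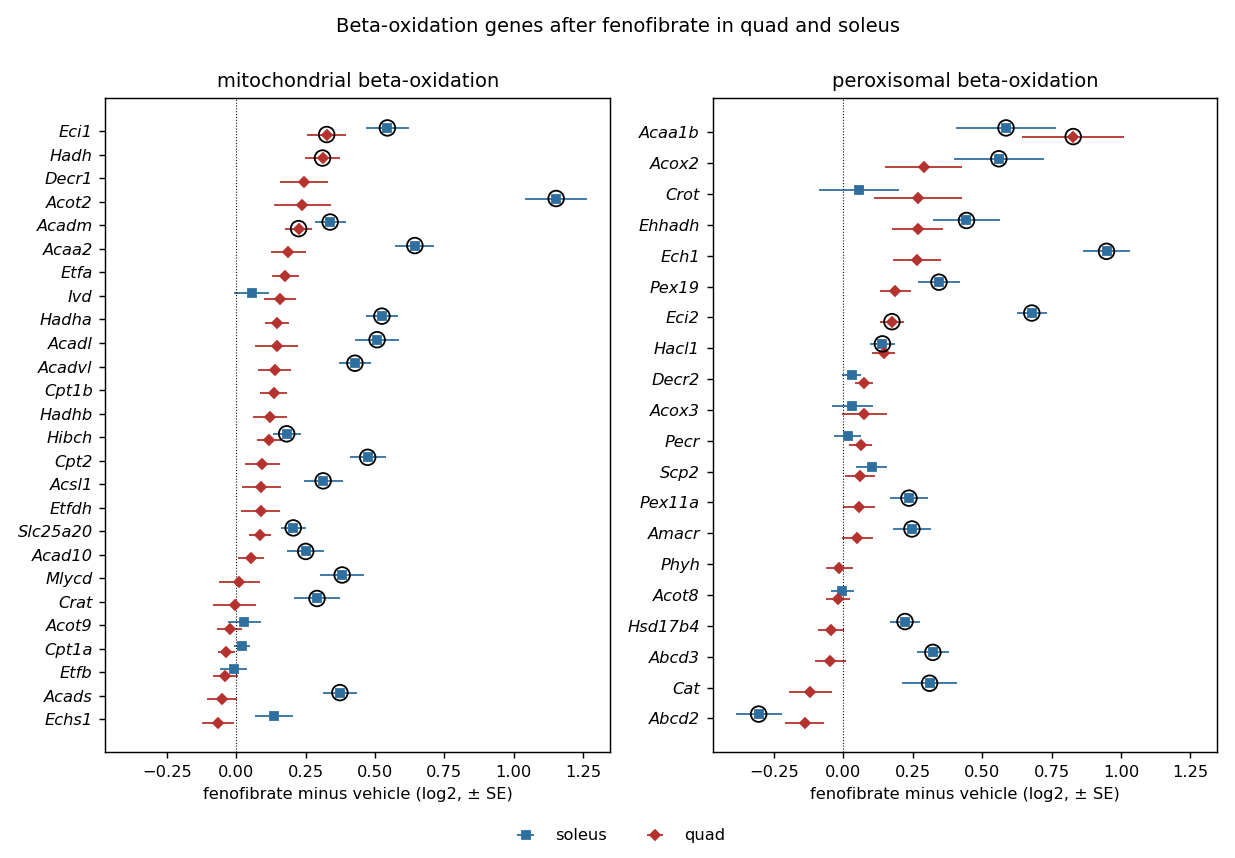
Fenofibrate effect in log2 units (x axis, bars are standard errors) on 26 mitochondrial and 20 peroxisomal beta-oxidation genes (y axis) in quad and, where tested, in soleus. Black circles mark an adjusted p below 0.05. In quad the circles mark 3 mitochondrial and 2 peroxisomal genes. In soleus they mark 15 of the 20 mitochondrial and 13 of the 19 peroxisomal genes tested there, most of them farther from 0. The soleus values come from a fit of both muscles, the quad values from quad arrays alone.

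Bezafibrate, a fibrate that acts on several PPARs, and Wy-14643, a PPARA agonist, were given in quad at 250 and 100 mkd, against 400 mkd of fenofibrate. The doses differ, and all 3 compounds share the vehicle arrays. The arrays numbered 17, 19 and 16, and both differences between compounds were tested within days. Acot1 was at 1.26 with fenofibrate, 1.17 with bezafibrate and 1.34 with Wy-14643. Its difference from bezafibrate was 0.10 (95% interval -0.42 to 0.62) and from Wy-14643 -0.07 (-0.62 to 0.47). Acaa1b was at 0.83, 0.30 and 0.88 in the same order, Eci1 at 0.33, 0.03 and 0.17, and Atp1b4 at 0.68, 0.26 and 0.46. None of these 3 differed between compounds beyond the test; the smallest adjusted p was 0.0693, for Eci1 against bezafibrate.

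Fenofibrate minus bezafibrate passed for 36 of 18423 features (0.195%), 5 higher with fenofibrate and 31 lower. Rbp7, a retinol-binding protein of capillary endothelium and fat, was at -0.29 with fenofibrate and 1.53 with bezafibrate, a difference of -1.82 ± 0.20 (adjusted p = 4.24e-11). Angptl4 differed by -0.68 ± 0.14, Fabp4 by -0.61 ± 0.12, Gpihbp1, the endothelial anchor of lipoprotein lipase, by -0.58 ± 0.10, and Ucp3 by -0.50 ± 0.12. With bezafibrate these 4 were at 0.82, 0.47, 0.46 and 0.63, and with fenofibrate at 0.14, -0.14, -0.12 and 0.12. The named genes higher with fenofibrate were Podxl (0.42 ± 0.10), Cyp2t1 (0.35 ± 0.09), C12h7orf50 (0.23 ± 0.05) and Ap1s1 (0.15 ± 0.03). Pdk4 was at 0.61 with bezafibrate, and its difference of -0.41 ± 0.15 did not pass (adjusted p = 0.318).

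Fenofibrate minus Wy-14643 passed for 1 of 18422 features (0.00543%), against 2079 at an unadjusted p under 0.05. That gene was Mtg2, higher with fenofibrate by 0.20 (adjusted p = 0.0163). Ehhadh was at 0.27 with fenofibrate and 0.56 with Wy-14643, a difference of -0.29 that did not pass (adjusted p = 0.287). Against vehicle, in a fit that held all quad compounds, bezafibrate gave 278 calls, Wy-14643 gave 9 and fenofibrate gave 197, in place of the 76 of the fit with fenofibrate and vehicle alone.

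**Figure D4:**
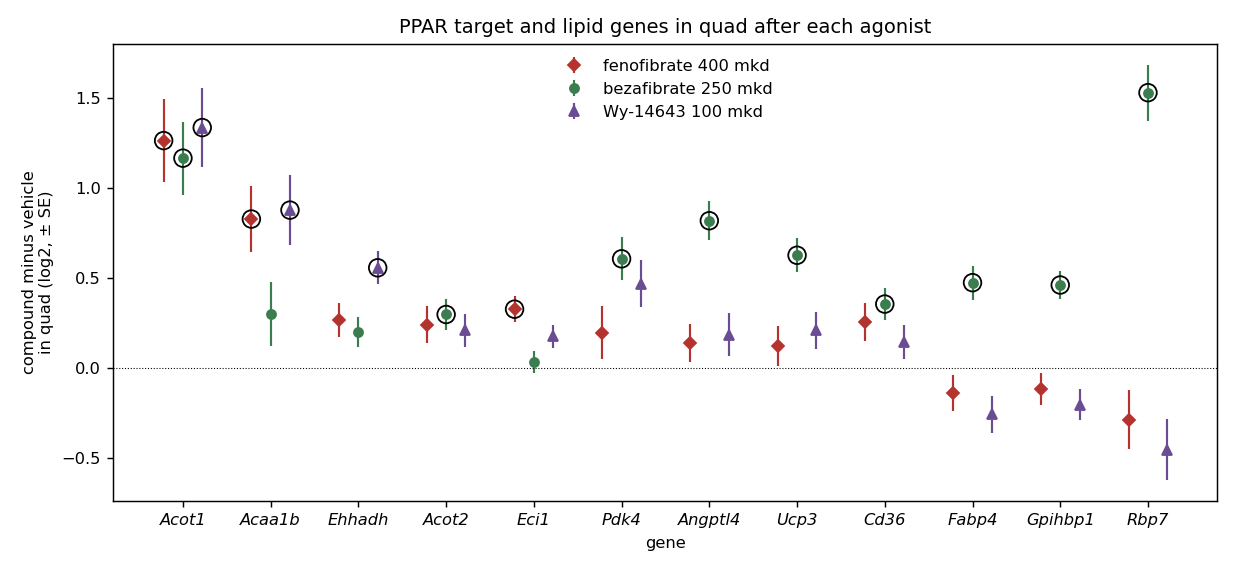
Effect against vehicle in quad in log2 units (y axis, bars are standard errors) of fenofibrate, bezafibrate and Wy-14643 on 12 genes (x axis), with black circles for an adjusted p below 0.05. Acot1 is circled for all 3 compounds, while Rbp7, Angptl4, Fabp4, Gpihbp1 and Ucp3 are circled for bezafibrate only.

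The number of calls depended on single rats and days. Leaving out 1 rat at a time gave 5 to 104 calls in place of 76, 5 without fenofibrate rat 1160, 1 of the 2 rats of day 6. Leaving out day 2 or day 4 gave 3 calls each, and with rat 1157 put back there were 384. Over the 78 fits without 1 rat, Acot1 ran from 1.17 to 1.42 and passed in each, together with 1 probe without a gene name. Atp1b4 passed in 77 (0.62 to 0.74), Acaa1b in 75 (0.65 to 1.00), Eci1 in 76 (0.28 to 0.37), Acadm in 76 and Arf1 in 19. Over 19 other settings of the same contrast Acot1 ran from 0.91 to 1.48 and passed in 18; the call was lost without day 3. Eci1 passed in 16 of 19, Hadh in 15 of 18, Atp1b4 in 15 of 19, Acaa1b in 14, Slc25a30 in 13, Pkia and Acadm in 11, Emcn and Nrip1 in 10, Arf1 in 8 and Rxrg in 7, and these 12 genes kept their direction. Of the 76 calls 75 kept their sign with rat 1157 put back; the exception was Rnaset2, a ribonuclease. Arf1, Emcn and Rxrg were among those lost when each array was centred on its median.

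**Figure D5:**
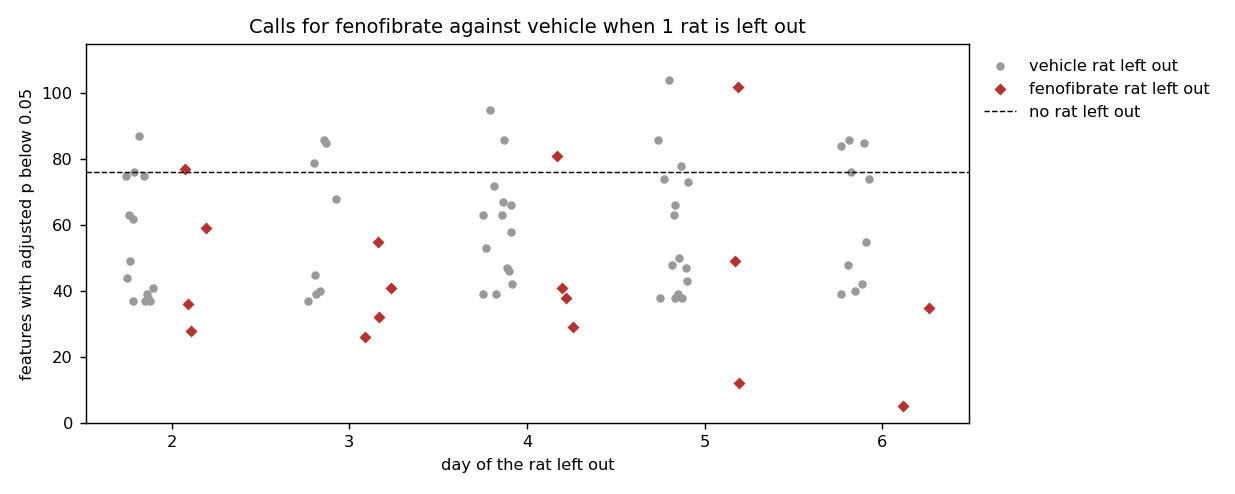
Number of features called (y axis) when 1 rat is left out (a point per rat), by the day of that rat (x axis) and by group, with a dashed line at the 76 calls of all rats. The lowest point is 5 calls, without fenofibrate rat 1160 of day 6, and the highest is 104, without vehicle rat 1056.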

How the data were processed

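Total RNA of single rats (Cy5) and vehicle pools (Cy3) was measured on 2-colour arrays. The authors deposited log10 ratios for 23653 probes on 484 arrays, limited to -2 and 2, from which the base of the logarithm was inferred; it is not stated in the sources used here, nor are scanner, software and normalization. The array medians of the deposited log10 ratios used here lay between -0.016 and 0.0197. Values were multiplied by 3.32 to give log2 ratios. Another base would scale all differences together. Intensities were not used, and precision is limited by how many arrays there are. 0.91% of the values were missing.

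Probes were named from the platform annotation and RefSeq's rat genes: 15260 probes named 1 gene, 17 several and 8376 none. Averaging all probes for a gene left 10210 genes and, with the other probes, 18603 features. A feature was tested if 80% or more of the arrays had a value for it. For 38 named or called genes with several probes, 6 had probes in both directions; in 0 of them did probes of both signs lie beyond 2 SE.

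A mean per treatment and day was fitted with limma 3.58.1 (lmFit and eBayes) in R 4.3.3. The fenofibrate effect is the difference from vehicle on a day, and the main value is the plain mean of the 5 daily effects. Tests were two-sided with Benjamini-Hochberg adjustment over all features of a comparison, at 0.05. The trend, the difference between soleus and quad and the differences between compounds were contrasts of the same kind. Bezafibrate and soleus arrays in doubt were left out too. Other steps used statmod 1.5.0, the R package data.table (version 1.17.8), Python 3.11.15, numpy 2.4.6, pandas 2.3.3, scipy 1.17.1 and matplotlib 3.10.9. The fit was tested on simulated data.

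Rats are separate animals by label number. Soleus and quad arrays with the same number were taken as the same rat. Deviations of the 41 rats with both muscles correlated at a median of 0.232, above 0.1 in 35, and the fitted within-rat correlation was 0.181. Correlations between arrays of different rats were not computed for comparison, so these values do not test the pairing.

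The members, gene lists and fixed set were chosen with earlier results of these data known. Named genes were the 10 largest rises and 10 largest falls that passed with the same sign on every day, the 4 passing genes with the smallest adjusted p in every list (or fewer), a fixed set of 39 PPAR and muscle genes, and the 5 largest of each sign in the other comparisons; others are marked where they are named. Of the fixed set 34 were tested, 5 were higher and 1 lower, against 0.223% and 0.19% of all features. Fabp3, Myh2 and Myh4 had too few values. Alternatives were other sets of arrays, centring, scaling, array weights, filters, probes as features, other contrasts and covariates, the rat as a block, and leaving out each rat or day.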

Additional observations from a re-analysis of the deposited data

Results flagged for a closer look

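The fenofibrate effect differed between soleus and quad for 7 genes of the fixed set. The test was limma's test of the difference with Benjamini-Hochberg adjustment over all features, of which 0.414% passed. The fixed set was chosen with earlier results of these data known. Soleus exceeded quad by 0.91 log2 units for Acot2, 0.68 for Ech1, 0.50 for Eci2, 0.46 for Acaa2, 0.38 for Cpt2, 0.38 for Hadha and 1.05 for Pik3c2g. With the rat as a fixed block Acaa2 and Hadha did not pass. The effect in quad also differed between days for Sult1d1, which gained 0.61 log2 units per day. Both groups hold more than 10 rats, so single rats were not tested for standing apart.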

How the results depend on the processing

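The number of features called for fenofibrate against vehicle in quad, 76, depended on the arrays and days used. It was 237 with all arrays in, 384 with fenofibrate rat 1157 put back, 32 with vehicle rat 1068 put back, 19 with arrays scaled to one spread (13 higher, 6 lower), 225 with array quality weights and 197 with all quad compounds in the fit. It was 3 without day 2, 13 without day 3, 3 without day 4 and 24 without day 6. With the ratio to the pool tested against 0 it was 1150. Centring each array on its median gave 65, with 29 higher and 36 lower in place of 41 and 35. The count stayed within 1.5 times of 76 with values on every array (75), a 50% filter (76), rat 1042 put back (74), robust eBayes (76), without day 5 (83), with day as an additive term (87), with probes not averaged (100) and with the hepatocyte covariate (89).

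Without 1 rat the count ran from 5 to 104, and for the trend from 0 to 4. Leaving out 41 of the 78 rats moved the count by over 1.5 times. Among fenofibrate rats it was 5 without 1160, 12 without 1153, 26 without 1145, 28 without 1144, 29 without 1151, 32 without 1148, 35 without 1159, 36 without 1141, 38 without 1150, 41 without 1146 or 1149 and 49 without 1154. Among vehicle rats it was 37 without 1003, 1012, 1013 or 1022, 38 without 1014, 1049, 1051 or 1059, 39 without 1004, 1028, 1034, 1044, 1063 or 1073, 40 without 1018 or 1079, 41 without 1011, 42 without 1045 or 1071, 43 without 1064, 44 without 1016, 45 without 1027, 46 without 1047, 47 without 1039 or 1060, 48 without 1052 or 1076, 49 without 1005 and 50 without 1054. The cause was not tested.

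The trend call was 0 with all arrays in, with rat 1157 put back, with probes not averaged and with all quad compounds in the fit. Soleus minus quad gave 39 with all arrays in and 181 with array quality weights, in place of 76. With the rat as a random replicate block it gave 189, and as a fixed replicate block 29; the pairing of arrays by rat changed the calls named in the report and no direction among them. Fenofibrate minus bezafibrate gave 836 with all arrays in, 79 scaled and 446 with weights, in place of 36. Fenofibrate minus Wy-14643 gave 346 with all arrays in, 15 centred and 187 with weights, in place of 1. For single named genes 929 values under these settings stayed on their side of the threshold, 176 lost the call and 11 gained it. None of the called genes that the naming rule took changed sign (Rnaset2, which it did not take, did so with rat 1157 put back and with all arrays in), while Cpt1a, Acadl, Hadhb, Plin2, Lpl, Cyp4a1, Vnn1, Ppard and Myh7, none of them called, crossed 0 under at least 1 setting.

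On days 5 and 6 there were 3 and 2 fenofibrate rats, and day 6 counts as much as any other day. The median standard error of 0.05 log2 units means that changes the size of many calls lie near what these arrays can separate. The replicates show the spread between rats, with array and rat not separable. Missing values took most fast-fibre genes out of the tests.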
